A study of Homo sapiens with 6 samples.

Results

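OLR1 and the other scavenger receptor genes named here were followed in H1975/OSI, a cell line with acquired resistance to osimertinib, and in NCI-H1975, the human lung adenocarcinoma line it was derived from. The genes were OLR1, SCARB1, SCARB2, CD36, SCARF1, SCARA3 and CD68, matched by Ensembl identifier to symbol. Of these 7 listed genes, 6 were found among the 30330 genes of the files and SCARA3 was not analysed here. All 6 passed the filter on low values, under which 24560 genes were tested. Because they were chosen with the difference between the 2 lines already known, their own values are given as a description, with no test.

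The resistant group is H1975/OSI, 3 libraries titled Drug, from cells exposed intermittently to osimertinib, an EGFR kinase inhibitor, at 0.03, 0.1, 0.3, 1 and 3 µM over 7 months. The control group is NCI-H1975, 3 libraries described as control. The sources used here do not say whether drug was present at harvest or whether libraries came from separate cultures, so the p-values measure library-to-library spread that could be technical alone. The resistant group is a single derived line, and the control is described no further than its name. Values are normalized read counts, in which the authors' reads of a library were all divided by the same size factor. Recovered totals were 15174126 to 16276518 reads in resistant and 15813497 to 16588479 in control libraries. Resistant 1 stood apart from the other resistant libraries, with a chi-square per gene of 10.8 and 12.1 against them and 2.32 between those; control pairs ranged from 2.43 to 3.66. No pair of libraries was alike to within sampling noise. Mitochondrial genes took 5.33% to 5.66% of reads in resistant and 6.46% to 7.34% in control libraries, and the part of this in the results was not tested.

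Scavenger receptors are a loose set of membrane proteins, grouped by structure into classes, that bind modified lipoproteins and other polyanionic ligands. OLR1 encodes LOX-1, a C-type lectin-like receptor for oxidized low-density lipoprotein, best known from endothelial cells and macrophages. The class B genes encode proteins anchored at both ends: SCARB1 is the high-density lipoprotein receptor, CD36 takes up long-chain fatty acids and binds thrombospondin, and SCARB2 (LIMP-2) sits in the lysosomal membrane. SCARF1 is an endothelial receptor with EGF-like repeats, and CD68 is a heavily glycosylated lysosomal protein of macrophages.

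Promoter windows from RefSeq (GRCh38.p14), running from 250 bases before to 50 bases after a start, were found for 3 of these genes. Those of SCARB2 and CD68, both genes of lysosomal proteins, are shown because SCARB2 was abundant and CD68 nearly without reads in the values described below. As given there, the CD68 counts cannot be read as the level of its transcript, so the windows are not set against expression. Capitals mark each CG dinucleotide, which reads the same on both strands. The SCARB2 window lies at chr4:76213775-76214074 on the minus strand and the CD68 window at chr17:7579388-7579687 on the plus strand. In the deposited coordinates the SCARB2 span begins, on its strand, at 76234536, so this window lies inside the span and not at its start.
SCARB2: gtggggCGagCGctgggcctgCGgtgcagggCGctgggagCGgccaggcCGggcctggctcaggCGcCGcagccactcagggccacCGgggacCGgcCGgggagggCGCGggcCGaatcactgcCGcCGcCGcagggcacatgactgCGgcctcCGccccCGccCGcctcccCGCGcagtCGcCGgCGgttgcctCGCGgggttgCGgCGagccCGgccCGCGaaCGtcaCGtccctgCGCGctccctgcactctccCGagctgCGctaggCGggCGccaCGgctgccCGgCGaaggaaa
CD68: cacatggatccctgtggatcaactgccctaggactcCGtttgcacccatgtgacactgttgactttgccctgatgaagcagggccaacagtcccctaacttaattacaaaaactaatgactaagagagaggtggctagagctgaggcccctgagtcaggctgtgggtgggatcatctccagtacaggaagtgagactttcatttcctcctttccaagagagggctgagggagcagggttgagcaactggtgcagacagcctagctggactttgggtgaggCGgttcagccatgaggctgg
The span of FAM47E on the opposite strand begins at 76214040, inside the SCARB2 window. The SCARB2 window held 44 CG dinucleotides, a number reached by 4.19% of the 35116 windows in the table, whose median was 14. The CD68 window held 2, as did 2 of the 6 CD36 windows, which ranged from 1 to 3. Of all windows, 96.0% held at least 1 and 18.2% held 2 or fewer. These counts describe the letters of these windows and nothing more.

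OLR1 was high in the resistant line and low in its control. It lies on chromosome 12 from 10158301 to 10172138, minus strand, on GRCh38 (ENSG00000173391). OLR1 was at 997, 1225 and 1211 normalized read counts in resistant libraries 1, 2 and 3, against 23.6, 37.4 and 21.2 in control libraries 1, 2 and 3. The groups lay far apart, the lowest resistant library being 26.7 times the highest control library. The mean was 1145 ± 128 in resistant and 27.4 ± 8.74 in control libraries (SD, n = 3 each), a ratio of 41.8. On the log2(value + 1) scale, used for every fold change here, the difference was 5.37 ± 0.17 (SE), the 14th largest rise of the 24560 genes fitted. It rested on 3533 recovered reads in resistant and 81 in control libraries, a ratio of 42.1 with a 95% counting interval of 33.8 to 53.2, which covers counting error only. In bulk RNA, a change in the number of cells that express a gene and a change in RNA per cell cannot be told apart.

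Resistant 1 had the lowest OLR1 value of its group, at 0.819 of the mean of resistant 2 and 3. With each library left out in turn, the log2 difference ran from 5.21 to 5.61. Over the other settings too, the range was 5.18 to 5.61.

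OLR1 shares part of its span with TMEM52B, a transmembrane protein gene on the plus strand. The spans overlap by 1597 bases around the start of OLR1, from 10170542 to 10172138, but in GENCODE 29 they share 0 exonic bases. TMEM52B was at 179, 188 and 199 normalized read counts in resistant libraries and at 27.7, 23.9 and 22.2 in control libraries. It rose without overlap between the groups (log2 fold change 2.90 ± 0.18 SE, limma adjusted p = 5.07e-12). The ratio of OLR1 to TMEM52B was 5.56, 6.50 and 6.08 in resistant libraries 1, 2 and 3, against 0.852, 1.57 and 0.957 in control libraries 1, 2 and 3. Whether reads were counted by strand is not stated in the sources used here, so reads from unspliced RNA of either gene in the shared span cannot be told apart.

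SCARB1 and SCARB2 were abundant in both lines. SCARB1 (chromosome 12, 124776856 to 124882668, ENSG00000073060) was at 3271, 2822 and 2806 normalized read counts in resistant libraries and at 3148, 3096 and 2802 in control libraries. The groups overlapped, with means of 2966 ± 264 in resistant and 3015 ± 187 in control libraries (SD, n = 3 each) and a log2 difference of -0.03 ± 0.07 (SE). SCARB2 (chromosome 4, 76158733 to 76234536, ENSG00000138760) was at 4005, 3712 and 3767 in resistant libraries and at 3959, 3936 and 4045 in control libraries. Its groups overlapped as well, and the log2 difference was -0.06 ± 0.06 (SE). These sizes lie within what the scaling moves: median centring shifted the median of all genes by -0.13, and with it SCARB1 was at -0.16 and SCARB2 at -0.19, while quantile normalization put SCARB2 at 0.04. SCARB2 overlaps FAM47E on the other strand, with 0 exonic bases in common. FAM47E was at 7.89 or below in every library.

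SCARF1, CD36 and CD68 were low. SCARF1 (chromosome 17, 1633858 to 1645747, ENSG00000074660) was at 41.8, 34.1 and 41.4 normalized read counts in resistant libraries and at 42.1, 33.3 and 31.8 in control libraries. The groups overlapped and the log2 difference was 0.13 ± 0.24 (SE). CD36 (chromosome 7, 80369575 to 80679277, ENSG00000135218) was at 10.2, 2.77 and 1.97 in resistant libraries and at 2.05, 0 and 0.964 in control libraries. That is 15 recovered reads in resistant and 3 in control libraries, a ratio of 4.83 with a counting interval of 1.37 to 26.0. Resistant 1 alone stood above the rest, at 4.30 times the mean of resistant 2 and 3. Without it the log2 difference of CD36 was 0.88, and with all libraries 1.46 ± 0.67 (SE).

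CD68 (chromosome 17, 7579467 to 7582113, ENSG00000129226) was at 5.10, 0 and 0 normalized read counts in resistant libraries and at 4.11, 4.16 and 0.964 in control libraries. The groups overlapped, with 5 recovered reads in resistant and 9 in control libraries, a ratio of 0.537 with a counting interval of 0.141 to 1.78. A floor of 3 reads corresponds to 2.77 to 3.12 normalized counts per library. CD68 shares 1789 of its 2189 exonic bases in GENCODE 29 with ENSG00000264772, a processed transcript on the same strand. The sources used here do not give how reads in shared exons were assigned. The low CD68 counts can therefore not be read as the level of its transcript.

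**Figure D1:**
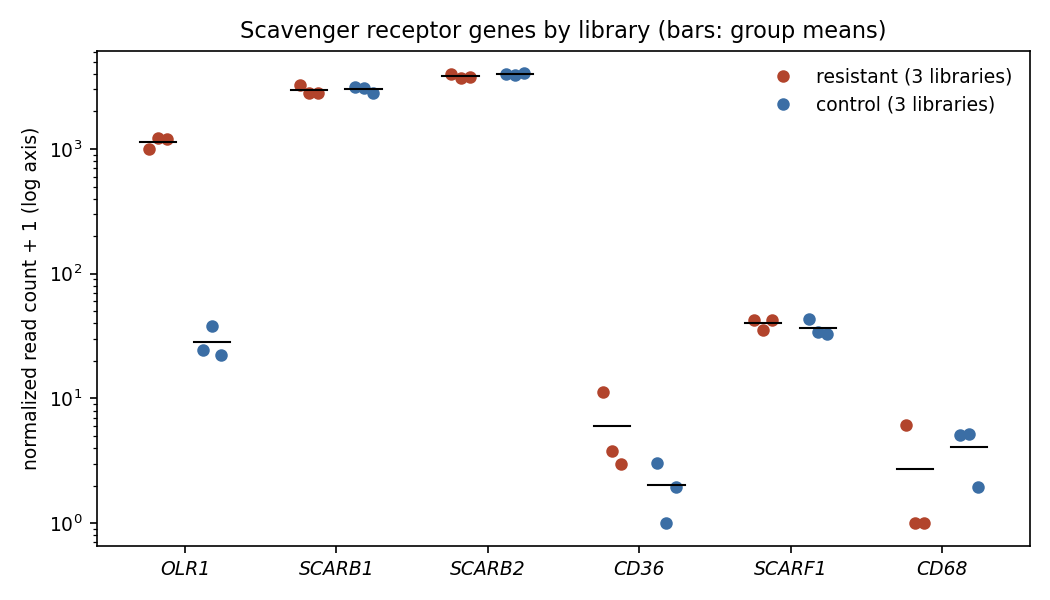
Normalized read count plus 1 on a log axis for 6 scavenger receptor genes, with 1 point per library (3 resistant, 3 control) and bars at group means. OLR1 stands at 997 to 1225 in resistant and 21.2 to 37.4 in control libraries, while the groups of the other genes overlap.

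Of the 6 genes, 1, OLR1, was past the threshold of an adjusted p of 0.05 used for all genes, against a background of 41.5% of genes called in this comparison (20.4% higher and 21.1% lower in resistant cells). At a change of 2-fold or more, 1 of the 6 was called higher and 0 lower, where 7.86% and 5.72% of all genes were. Its groups were also the only ones of the 6 that did not overlap, against 50.1% of genes tested (24.7% higher and 25.4% lower). Nothing is read from these counts, since the difference between the lines was used to choose the genes. The median log2 difference of the 6 was 0.05, against 0.01 over all genes.

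Per kilobase of gene length, OLR1 stood beside SCARB1 in resistant cells and beside SCARF1 in control cells. This length takes in all annotated exonic bases of a gene, 3057 for OLR1 and 19341 for SCARB2. The order between genes therefore depends on the annotation as well as on the counts, and is not an order of transcript levels. By counts alone, SCARB2 stood above OLR1 in resistant libraries, with means of 3828 and 1145. In resistant libraries the order was SCARB1 at 383 ± 34.1, OLR1 at 374 ± 41.7, SCARB2 at 198 ± 8.05, SCARF1 at 7.89 ± 0.871, CD68 at 0.776 ± 1.34 and CD36 at 0.458 ± 0.417 normalized counts per kilobase (SD, n = 3 each). SCARB1 and OLR1 did not differ beyond their spread, nor did the counts of CD68 and CD36. The place of CD68 in either order is that of its counts, which cannot be read as the level of its transcript. In control libraries the order was SCARB1 at 390 ± 24.1, SCARB2 at 206 ± 2.96, OLR1 at 8.97 ± 2.86, SCARF1 at 7.20 ± 1.12, CD68 at 1.41 ± 0.836 and CD36 at 0.0924 ± 0.0944. There OLR1 and SCARF1 did not differ beyond their spread. Among all tested genes the counts of OLR1 per kilobase stood at percentile 92.6 in resistant and 37.2 in control libraries. These percentiles depend on the annotated lengths in the same way. Of the reads of the 6 genes together, OLR1 made up 14.3% in resistant and 0.388% in control libraries.

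The 5 protein-coding genes whose profiles over the 6 libraries lay nearest to that of OLR1 were COL1A2, PPP4R4, TMEM47, FIBIN and SERPINA10. Likeness was the root mean square distance of log2(value + 1) values after subtracting the control mean, which a difference between groups of similar size largely sets. The distances were 0.26, 0.28, 0.35, 0.40 and 0.41. COL1A2, a collagen I chain, averaged 29275 in resistant and 698 in control libraries. PPP4R4, a protein phosphatase 4 subunit, averaged 757 in resistant and 16.5 in control libraries. TMEM47, a junction-associated membrane protein, averaged 1274 in resistant and 39.0 in control libraries. FIBIN and SERPINA10 averaged 29.5 and 54.1 in resistant libraries and had no reads in control libraries, so their fitted fold changes depend on the pseudocount.

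The tested genes nearest to OLR1 were also higher in the resistant line. OLR1 sits in a cluster of C-type lectin-like receptor genes, the natural killer gene complex. On one side, CLEC7A, the beta-glucan receptor Dectin-1 and itself a class E scavenger receptor, was at 19.4, 20.3 and 24.7 normalized read counts in resistant libraries and at 6.16, 6.23 and 6.75 in control libraries. It rose by a log2 fold change of 1.60 ± 0.37 (SE; limma adjusted p = 0.000973), from few reads. On the other side, beyond TMEM52B, GABARAPL1, an ATG8 family autophagy protein, was at 1185, 1206 and 1119 in resistant libraries and at 362, 377 and 378 in control libraries. Its log2 fold change was 1.65 ± 0.08 (SE; limma adjusted p = 3.56e-14). In each of these genes every resistant library was above every control library.

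Farther out the direction was mixed. Within 500 kb of OLR1, 16 other genes were tested, of which 4 rose and 1 fell, with a median log2 fold change of -0.12. The genes that rose were CLEC7A, TMEM52B and GABARAPL1, described above, and CLEC2D. Over all genes, 20.4% were called higher and 21.1% lower, and nothing is read from the count. CLEC2D, a lectin-like ligand of the NK cell receptor KLRB1, rose to 216 ± 34.3 in resistant libraries, against 66.9 ± 9.42 in control libraries (SD, n = 3 each; log2 fold change 1.68, limma adjusted p = 6.54e-09). KLRC1, the NK cell receptor NKG2A, was the gene that fell, to 16.3 ± 4.82 in resistant libraries, against 61.0 ± 6.88 in control libraries (SD, n = 3 each; log2 fold change -1.87, limma adjusted p = 3.26e-06). KLRC1 overlaps its close paralog KLRC2, so its reads may be split between them. The 4 nearest tested genes on each side of OLR1 also included ENSG00000257027, which lies past CLEC2D, outside the 500 kb. ENSG00000257027 rose (1.33, limma adjusted p = 0.00157). CLEC2B, nearer to OLR1 than CLEC2D, and KLRK1-AS1 and KLRK1, nearer than KLRC1, did not pass the test. CLEC2B stood at 0.987 to 14.3 in resistant and at 1.93 to 14.5 in control libraries. KLRK1-AS1 stood at 3.95 to 18.4 in resistant and at 11.6 to 14.4 in control libraries, and KLRK1 at 2.08 or below in every library. KLRK1 overlaps KLRC4-KLRK1, which averaged 11.8 in resistant and 12.9 in control libraries. How reads in their overlap were assigned is not known, so the KLRK1 counts may not give its level.

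**Figure D2:**
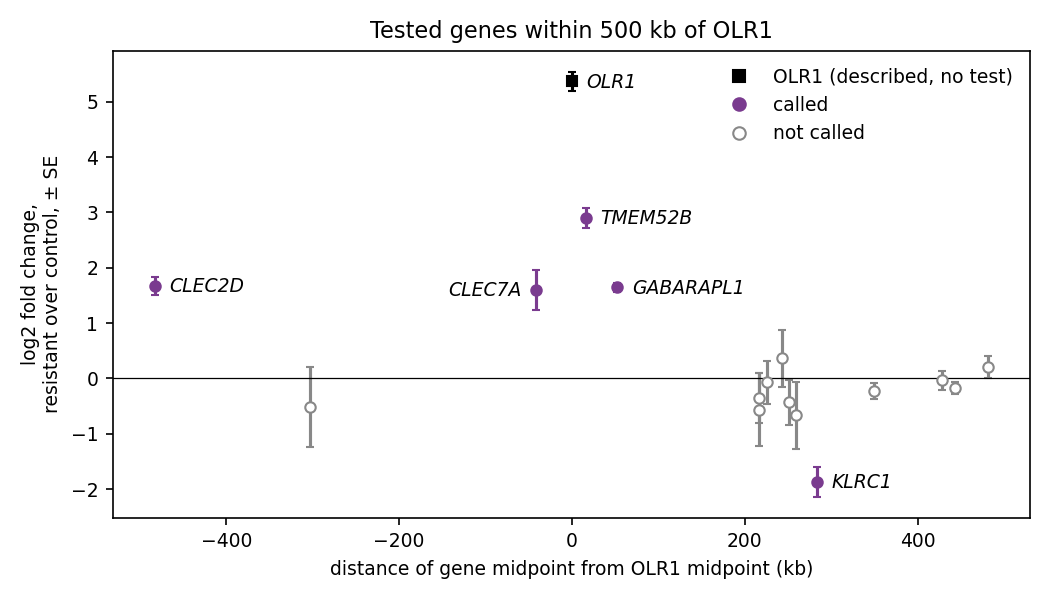
Log2 fold change (resistant over control, ± SE) of genes within 500 kb of OLR1 against the distance between gene midpoints in kb; filled circles passed the test, open circles did not, and the square is OLR1. CLEC7A, TMEM52B and GABARAPL1 beside OLR1 rose by 1.60, 2.90 and 1.65, and KLRC1 fell by 1.87.

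Of the C-type lectin-like receptor list for this cluster, 14 genes long, 6 were tested. The called genes were those already described, 2 higher (CLEC2D and CLEC7A) and 1 lower (KLRC1). The median was 0.39, against 0.01 over all genes. At 50%, the share called was near the 41.5% of all genes (20.4% higher and 21.1% lower), so the count is no result about the list. KLRD1, too low to be tested, was at 8.16, 0.923 and 2.96 in resistant libraries and at 0, 0 and 0.964 in control libraries.

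Other scavenger receptors were examined by class. Of 16 listed genes, COLEC12, CD163 and LRP2 were not analysed here, and MSR1, the macrophage class A receptor, was too low to be tested, at 1.04 or below in every library. Of the 12 tested, 6 rose and 1 fell, with a median log2 fold change of 0.60 beside 0.01 over all genes. The background was 20.4% called higher and 21.1% called lower. Leaving out single libraries gave 4 to 6 higher. This list and those below were chosen with earlier results of these data known, so nothing is read from their counts.

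Among the receptors that rose, CXCL16 is a chemokine whose membrane form binds oxidized lipoprotein (class G). CXCL16 was at 269, 281 and 261 normalized read counts in resistant libraries and at 96.5, 96.6 and 86.7 in control libraries. The groups did not overlap (log2 fold change 1.53 ± 0.13 SE, limma adjusted p = 7.98e-10), although CXCL16 overlaps MED11. SCARF2, the class F relative of SCARF1, was at 260, 191 and 193 in resistant libraries and at 126, 123 and 90.6 in control libraries (0.92 ± 0.15 SE, limma adjusted p = 3.02e-05). CD163L1, a class I receptor with scavenger receptor cysteine-rich domains, was at 230, 185 and 153 in resistant libraries and at 120, 122 and 120 in control libraries (0.63 ± 0.15 SE, limma adjusted p = 0.00117). In both genes resistant 1 was the highest library, and neither call was lost when it was left out.

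LRP1, a large endocytic receptor of class L, was at 9129, 7629 and 7736 normalized read counts in resistant libraries and at 6241, 5717 and 4525 in control libraries. It was called (0.58 ± 0.12 SE, limma adjusted p = 0.00276), but not without resistant 1 (0.50, limma adjusted p = 0.0997, the highest over all settings, of which the lowest was 2.05e-07), and it overlaps STAT6. AGER, the receptor for advanced glycation end products (class J), was at 88.7, 73.8 and 76.9 in resistant libraries and at 52.4, 49.9 and 61.7 in control libraries (0.54 ± 0.19 SE, limma adjusted p = 0.0224). The AGER call was lost without resistant 1 (0.46), control 1 (0.51) or control 2 (0.48), with median centring (0.41), with quantile normalization (0.43) and with DESeq2, its adjusted p running from 0.0173 to 0.0842 over the settings.

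CD44, the hyaluronan receptor placed in class K, was the 1 receptor that fell. CD44 was at 8746, 7970 and 8238 normalized read counts in resistant libraries and at 17043, 17171 and 17056 in control libraries. Every resistant library was below every control library (log2 fold change -1.04 ± 0.06 SE, limma adjusted p = 7.57e-13), and CD44 overlaps CD44-AS1. The 5 receptors that did not pass the test, MARCO, SCARA5, STAB1, STAB2 and MEGF10, were at 12.8 or below in every library.

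The deposited gene descriptions name 3 more scavenger receptor family members, added after their values were seen. SSC5D rose to 149 ± 10.6 in resistant libraries, against 106 ± 10.2 in control libraries (SD, n = 3 each; log2 fold change 0.49, limma adjusted p = 0.0081), and its call ended with median centring (0.35). Neither SCART1 (-0.04, 95% interval -0.23 to 0.16) nor SSC4D (-0.06, 95% interval -0.84 to 0.72) passed the test.

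**Figure D3:**
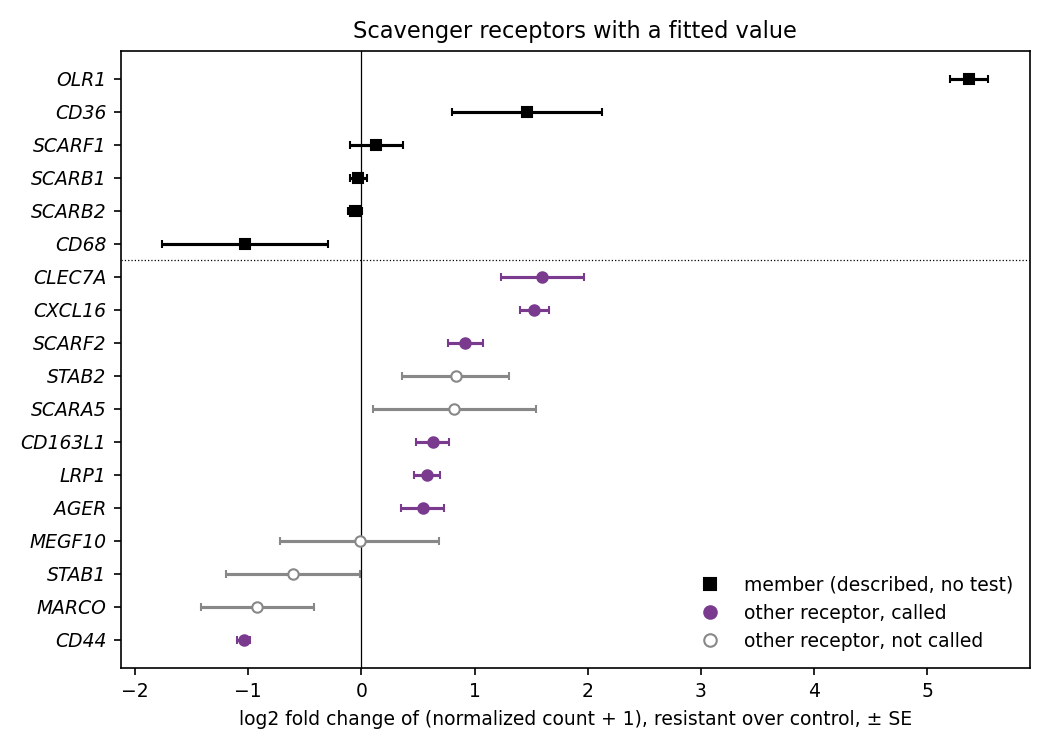
Log2 fold change (resistant over control, ± SE) of the 6 scavenger receptor genes followed here (squares, described without a test) and of 12 other scavenger receptors (filled circles passed the test, open circles did not). OLR1 stands at 5.37, beyond every other receptor drawn, and CD44 at -1.04.

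Among ligands, cargo and adaptors of these receptors, 15 were listed and 12 tested, and 5 rose and 3 fell (median 0.14). That is 66.7% called, where 41.5% of all genes were (20.4% higher and 21.1% lower). SAA1, an acute-phase serum amyloid and ligand of SCARB1 and CD36, was at 3926, 3818 and 3398 normalized read counts in resistant libraries and at 1211, 1301 and 1115 in control libraries. SAA2 was at 1122, 1422 and 1468 in resistant libraries and at 331, 333 and 368 in control libraries. Their log2 fold changes were 1.62 and 1.95 (limma adjusted p = 1.45e-14 and 5.41e-14), and as near-identical paralogs they may share reads. FN1, fibronectin, to which LOX-1 can bind, rose by a log2 fold change of 0.79, with 56327 ± 1479 in resistant and 32713 ± 3616 in control libraries (SD, n = 3 each). THBS1, the CD36 ligand thrombospondin 1, rose by a smaller amount (0.31 ± 0.06 SE), as did ANXA5 (0.35 ± 0.06 SE), which binds phosphatidylserine. Those that fell included HSPA8, a heat shock cognate (-0.76), and CALR, calreticulin, a SCARF1 ligand (-0.50). APOE, PDZK1, the SCARB1 adaptor, THBS2 and APOA1 did not pass the test.

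Among genes of lipoprotein and fatty acid handling other than scavenger receptors, 24 were listed and 22 tested, and 10 fell and 3 rose (median -0.22). That is 59.1% called, beside the 41.5% of all genes, of which 21.1% were lower and 20.4% higher. Without the mean-variance trend in limma, 6 fell. VLDLR, the very low-density lipoprotein receptor, was at 356, 317 and 356 normalized read counts in resistant libraries and at 82.1, 128 and 105 in control libraries (log2 fold change 1.72 ± 0.14 SE, limma adjusted p = 6.34e-10). SLC27A1, a fatty acid transport protein, also rose (0.95), while its relative SLC27A4 fell (-1.06). RXRA, a nuclear receptor partner, rose by 0.51 and lost its call in limma without trend.

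LRP8, the apolipoprotein E receptor 2, fell by 0.90, FABP5, a fatty acid-binding protein, by 1.51, PLIN3, a lipid droplet coat protein, by 0.70, and SOAT1, which esterifies cholesterol, by 0.61 on the log2 scale. PPARG, a nuclear receptor of fatty acid ligands that drives CD36 in macrophages, was at 247, 221 and 241 in resistant libraries and at 373, 347 and 367 in control libraries (log2 fold change -0.62 ± 0.10 SE, limma adjusted p = 2.60e-05). The efflux transporter ABCA1 did not pass the test, with resistant 1 at 2017 and the 5 other libraries at 1198 to 1358.

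Of 23 genes described with LOX-1 in vascular cells, 21 were tested, and 3 rose and 6 fell (median -0.11). At 42.9%, the share called was near the 41.5% of all genes (20.4% higher and 21.1% lower), so the count is no result about the list. Quantile normalization gave 6 higher and median centring 11 lower, and limma without trend 2 lower, so these counts depend on the setting. CCL2, a monocyte chemokine, was at 3247, 4543 and 4411 normalized read counts in resistant libraries and at 1383, 1391 and 1484 in control libraries (log2 fold change 1.50 ± 0.11 SE, limma adjusted p = 1.41e-07). ICAM1, a leukocyte adhesion molecule, rose by 0.81 (limma adjusted p = 1.77e-08). VCAM1 was at 4.61 or below in every library. MMP9, a gelatinase, fell by 0.97 on the log2 scale (limma adjusted p = 0.0029), a call lost in limma without trend. ADAM17 and ROCK2, a sheddase and a kinase, fell by 0.40 and 0.45 on the log2 scale. ADAM10, which can shed LOX-1, and MMP14, a membrane protease reported to associate with it, had log2 fold changes of -0.03 (95% interval -0.15 to 0.10) and 0.07 (95% interval -0.07 to 0.20), neither past the threshold. Of the AP-1 genes, JUN was at -0.05 (-0.24 to 0.14), and FOS at -0.34 (limma adjusted p = 0.0406), a call lost in edgeR, without control 1 (-0.34) or control 3 (-0.31) and in 3 further settings, with an adjusted p of 0.00237 to 0.179 over all settings.

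Of 19 lysosomal genes tested, beside which SCARB2 and CD68 are placed, 6 rose and 8 fell (median -0.08). That is 73.7% called, where 41.5% of all genes were (20.4% higher and 21.1% lower). With median centring, and in limma without trend, 3 rose. CTSD, cathepsin D, rose by a log2 fold change of 0.81, NPC2, a cholesterol carrier of the lysosome lumen, by 0.72, and PSAP, prosaposin, by 0.37. LIPA, the lysosomal acid lipase that frees cholesterol from lipoproteins taken up, was at 2412, 2475 and 2354 normalized read counts in resistant libraries and at 4255, 4173 and 4479 in control libraries (-0.83 ± 0.06 SE, limma adjusted p = 1.03e-10). LIPA overlaps IFIT1, IFIT2 and IFIT3. CTSB, cathepsin B, fell by 0.61 and GLA, alpha-galactosidase, by 0.50 on the log2 scale. LAMP1 and LAMP2, major membrane proteins of the lysosome, were called higher by 0.24 and 0.20, and both calls ended with median centring (0.11 and 0.06) and in limma without trend. The LAMP2 call also ended without control 1 (0.17) or control 2 (0.19).

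**Figure D4:**
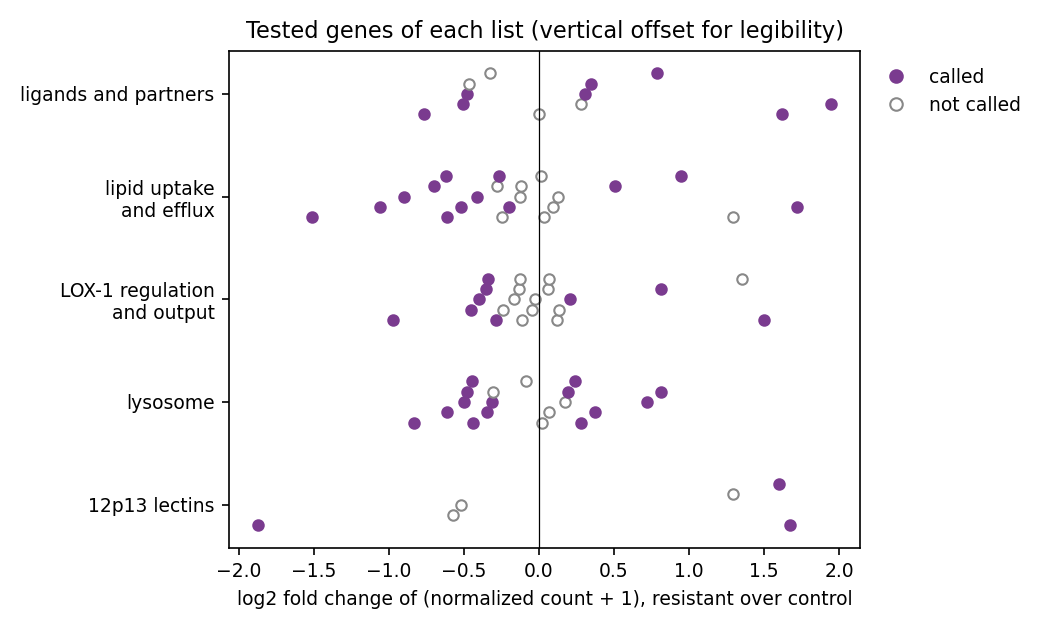
Log2 fold change (resistant over control) of each tested gene in 5 lists, 1 circle per gene, filled where the gene passed the test. Ligands and partners reach 1.95 (SAA2), lipid handling genes run from -1.51 (FABP5) to 1.72 (VLDLR), and KLRC1 among the 12p13 lectins is at -1.87.

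Markers of the cells in which these receptors are best known were checked beside the results. Of 12 macrophage markers, 7 had a row, and their summed level was 326 to 368 in resistant and 498 to 520 in control libraries. CD14 and CSF1R made up most of it and both fell, CD14 to 266 ± 32.6 in resistant libraries, against 387 ± 0.794 in control libraries, and CSF1R to 44.1 ± 7.94 in resistant libraries, against 92.4 ± 9.13 in control libraries (SD, n = 3 each). ITGAM, an integrin chain of myeloid cells, was at 30.5 ± 2.61 in resistant libraries and at 21.8 ± 4.69 in control libraries (SD, n = 3 each), without overlap of the groups but not past the threshold (0.49, limma adjusted p = 0.174). FCER1G was at 8.21 or below and SPI1, LYZ and MRC1 at 4.11 or below in every library. Of 10 endothelial markers, 8 had a row and were tested, of which 1 rose and 2 fell. At 37.5%, the share called was near the 41.5% of all genes (20.4% higher and 21.1% lower), so the count is no result about the list. The 8 summed to 597 to 782 in resistant and 324 to 359 in control libraries, and CDH5 alone made up most of the resistant sum. CDH5, VE-cadherin, rose to 579 ± 105 in resistant libraries, against 126 ± 3.37 in control libraries (SD, n = 3 each). PECAM1 fell to 78.9 to 88.7 in resistant libraries, against 157 to 199 in control libraries, while VWF, CLDN5 and KDR were at 9.23 or below in every library. EGFL7 was called lower from few reads, at 3.22 ± 1.33 in resistant and 9.06 ± 1.58 in control libraries (SD, n = 3 each). Its call was lost in DESeq2 and edgeR, with no filter on low values, with a pseudocount of 0.1 and with replicate number as a block. It was also lost when any single library other than resistant 2 was left out. Of 5 platelet and adipocyte markers, ITGA2B was the 1 with a row and did not pass the test, with 84.8 to 110 in resistant and 72.7 to 93.5 in control libraries.

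Of 10 markers of lung adenocarcinoma, 2 rose and 5 fell, and the list summed to 42922 to 50321 in resistant and 60121 to 63654 in control libraries. That is 70% called, where 41.5% of all genes were (20.4% higher and 21.1% lower). EPCAM, an epithelial adhesion molecule, fell to 17.3, 15.7 and 19.7 in resistant libraries, against 391, 353 and 391 in control libraries (log2 fold change -4.36 ± 0.17 SE, limma adjusted p = 9.6e-16). CDH1, E-cadherin, fell to 96.9, 126 and 124 in resistant libraries, against 409, 364 and 331 in control libraries (-1.66 ± 0.13 SE, limma adjusted p = 2.47e-10). The keratins KRT8, KRT18 and KRT19 also fell, by 0.51, 0.41 and 1.18 on the log2 scale, but with KRT7 stood at 4872 or above in every library. NKX2-1, a lung lineage factor, and MUC1, a mucin, rose by 0.69 and 0.91. NAPSA and SFTPB did not pass the test, and SFTPB was at 8.67 or below in every library. The part of any of these marker lists in the level of OLR1 was not tested.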

How the data were processed

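RNA-seq was measured in 3 resistant and 3 control libraries. The labels name total RNA with NEBNext Ultra and SMARTer kits. The deposited value is a normalized signal per gene, and every one of the 30330 values per library (100%) was a whole multiple of 1 number within 0.001 reads, so whole reads were recovered. The submitters' processing notes name GRCh38; the sources used here give no aligner, counter or normalization tool.

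Values were tested as log2(value + 1) with limma-trend (limma 3.58.1, R 4.3.3, robust, group as the sole term, two-sided), keeping genes whose value reached 1 in 3 or more of the libraries, with Benjamini-Hochberg adjustment over 24560 genes and a threshold of 0.05. An exact permutation test with 3 against 3 cannot go below 0.1 and was not used. On the recovered reads, edgeR 4.0.16 (quasi-likelihood, TMM) called 10159 genes, against 10204 in limma, and DESeq2 1.42.0 called 8826. Symbols came from an Ensembl table (23695 genes matched) and exons from GENCODE 29.

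The members and gene lists were chosen with earlier results of these data known. Named genes were the members, genes overlapping them, the 4 nearest tested genes on each side of OLR1, all other tested scavenger receptors, up to 4 called genes per direction and list, a fixed set of 14 and the 5 genes most like OLR1. Others named were chosen after their values were seen. Some genes of the lists are not reported here.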

Additional observations from a re-analysis of the deposited data

How the results depend on the processing

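OLR1 kept its direction in every alternative, from 5.18 to 5.61 on the log2 scale. Median centring moved the share of calls that were higher to 35.8%, against 49.1%, and moved SCARB1 to -0.16 and SCARB2 to -0.19. It also put 1 member (SCARB2) past the threshold as lower. Nothing is read from that call, since the members were chosen on this contrast and the setting shifted the median of all genes by -0.13. Quantile normalization moved SCARB2 to 0.043. A pseudocount of 0.1 moved CD36 to 2.69 and CD68 to -2.84, both of which rest on few reads. Called genes in lists moved by over 1.5 times in these cases: lipid handling, 6 lower in limma without trend, against 10; LOX-1 genes, 6 higher with quantile normalization, against 3, and 2 lower in limma without trend or 11 with median centring, against 6; lysosome, 3 higher in limma without trend and 3 with median centring, against 6. Leaving out single libraries gave 8746 to 10198 called genes, and 4 to 6 other scavenger receptors higher. The replicate block gave 10175 called genes, against 10204, and same-numbered libraries did not deviate together (r of -0.0015, 0.00011 and 0.0067), so the numbers were not taken as pairs. Among 104 other named or listed genes, 1673 of 1745 recomputed values kept their direction and side of the threshold, 54 lost a call, 18 gained one and 0 called values changed sign. The causes were not tested. Genes with a few reads per library, such as CD36 and CD68, cannot be resolved at this depth. For CD68, how reads in its shared exons were assigned is also not known, a limit apart from depth.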
